A study of Mus musculus with 32 samples.

Results

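The comparison described here set hematopoietic progenitors of fetal mice with 1 S34F allele of U2af1 against progenitors of fetal mice that carried the Cre transgene alone. It used 6 of the 32 libraries of the series, chosen by the genotype and batch in the labels. All 6 came from fetal liver at stage E14.5 of untreated mice, and from Lin- cKit+ Sca1- cells, a gate that holds progenitors already committed to the blood lineages and few stem cells. The S34F group had 4 libraries of the genotype Vav1-Cre/U2af1(wt/S34F), all in batch B. The controls were 2 libraries of the genotype Vav1-Cre, of which 1 was in batch B (control B) and 1 in batch A (control A). Both groups therefore shared Vav1-Cre, a transgene that drives the recombinase in blood cells. The labels did not describe how the S34F allele was built, whether its expression was checked, or whether each library came from a separate embryo.

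U2AF1 is the small subunit of U2AF, the factor that recognises the end of an intron. U2AF1 contacts the AG dinucleotide at the 3' splice site, and its partner U2AF2 binds the pyrimidine tract just before it. S34F replaces a serine with a phenylalanine in a zinc finger of U2AF1 and is a recurrent mutation in myelodysplastic syndromes, in which blood cell production fails. The mutant protein changes which 3' splice sites are preferred. The counts used here measure the amount of RNA per gene and not its splicing. Counts of U2af1 were not analysed here, and so the genotype in the labels could not be checked by them.

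With a single control in the batch of the S34F libraries, no test of S34F against control was made and no p-value is given for it. Levels are given as CPM, the scaled counts of a gene per 1000000 counts of its library. Differences are in log2 CPM, S34F library minus control, with the SD over the 4 S34F libraries. A gene was called where all 4 S34F libraries differed at least 2-fold from control B in the same direction, among 11823 genes with a mean of at least 10 counts. Such a call describes these libraries, and the genotype cannot be told apart from anything else that set control B apart. Control A was used as an additional reference and was never averaged with control B.

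The 4 S34F libraries had 26588099 to 48869802 counts, control B had 28886512 and control A had 50900861. A count of 3 corresponded to 0.0589 to 0.113 CPM. Reads carried no molecular identifiers, so intervals given here cover counting error only. Kit, the receptor used for sorting, was at 520 to 549 CPM in the S34F libraries, 562 in control B and 586 in control A. Pairs of S34F libraries differed at least 2-fold in 224 to 429 genes, and S34F libraries differed from control B in 464 to 564 and from control A in 1095 to 1288 genes. The controls differed from each other in 973 genes, so control A stood further from batch B than the groups within batch B stood from each other. The Y-linked noncoding RNA Gm29650 had 19 counts in S34F replicate 1, 18 in control B and 35 in control A, and 0 in S34F replicates 2, 3 and 4. It was thus read in both controls but in only 1 of the 4 S34F libraries. The part of embryo sex in the differences from the controls was not tested. Genes of hepatocytes, the main other cells of fetal liver, summed to 29.6 to 63.3 CPM over 11 genes in the S34F libraries, 29.9 in control B and 165 in control A. Macrophage and monocyte genes, 16 in number, had a median difference of 0.42 from control B and -1.06 from control A. The part of these cells in the results below was not tested.

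Of the 11823 genes, 96 were called higher in the S34F libraries, or 0.812%, and 29 were called lower, or 0.245%, together 1.06%. The minimum mean count was taken over 5 libraries of which 4 were S34F, so a gene at a low level passed more readily where it was high in the S34F libraries. The excess of higher genes was not stable: without a minimum 250 were higher and 213 lower, and with a mean of at least 50 counts 14 and 11. The 29 lower genes held 6 genes of B-cell specification. The 96 higher genes were mostly at the edge of detection, with a median level of 0.702 CPM in the S34F libraries and 0.173 CPM in control B. Of the called genes, 42 higher (0.355% of all genes) and 5 lower (0.0423%) were also at least 2-fold beyond control A. Of these, 11 higher and 4 lower genes averaged 50 counts or more in whichever group was higher, and all 15 are named below.

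**Figure D1:**
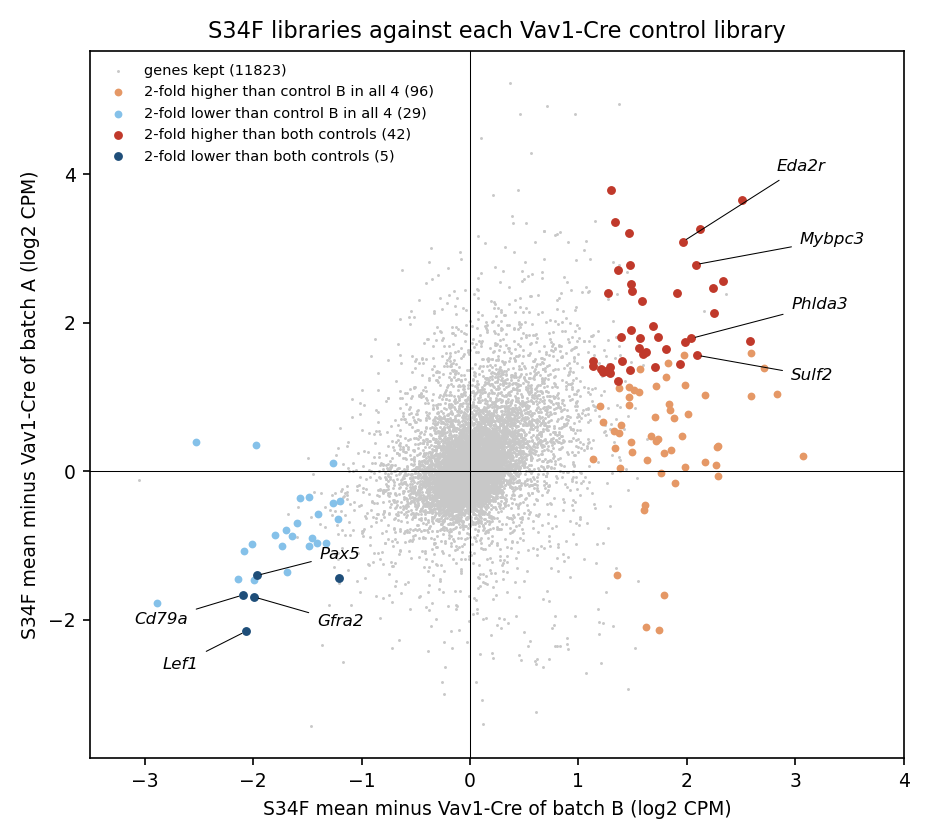
Mean log2 CPM difference of the 4 S34F libraries from control B (horizontal axis) and from control A (vertical axis), 1 point per gene for 11823 genes. The 42 genes at least 2-fold higher and the 5 genes at least 2-fold lower than both controls are in dark red and dark blue, with Phlda3 and Eda2r among the former and Pax5, Cd79a, Lef1 and Gfra2 among the latter.

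Promoter sequences are printed for a B-cell gene that was lower and for p53 target genes that were higher, as examples of genes described below. They are the 250 bases before the start site in RefSeq (build GRCm38.p6), read along the strand of the gene. Capitals mark the motif searched on both strands. It was CATG, then 6 bases of any kind, then CATG, a core of p53 response elements, for Pax5 and Cdkn1a, and CCCNNGGG, the core bound by the B-cell factor EBF1, for Phlda3. The genes shown were chosen after their values were seen. The windows of 5 genes were searched for both motifs: those of Cd79a and Eda2r held neither and are not printed, and those of Pax5 and Cdkn1a held no EBF1 core.

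Pax5, chr4:44710695-44710944, minus strand: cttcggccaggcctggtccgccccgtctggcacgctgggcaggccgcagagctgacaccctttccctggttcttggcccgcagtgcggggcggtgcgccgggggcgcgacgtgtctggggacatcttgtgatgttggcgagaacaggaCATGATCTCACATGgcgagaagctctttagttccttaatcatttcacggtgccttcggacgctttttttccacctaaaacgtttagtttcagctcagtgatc
Cdkn1a, chr17:29090729-29090978, plus strand: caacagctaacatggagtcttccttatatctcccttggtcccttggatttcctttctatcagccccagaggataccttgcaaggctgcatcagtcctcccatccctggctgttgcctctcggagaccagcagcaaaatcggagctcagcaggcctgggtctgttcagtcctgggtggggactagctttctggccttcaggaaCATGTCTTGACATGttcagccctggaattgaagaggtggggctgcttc
Phlda3, chr1:135765835-135766084, plus strand: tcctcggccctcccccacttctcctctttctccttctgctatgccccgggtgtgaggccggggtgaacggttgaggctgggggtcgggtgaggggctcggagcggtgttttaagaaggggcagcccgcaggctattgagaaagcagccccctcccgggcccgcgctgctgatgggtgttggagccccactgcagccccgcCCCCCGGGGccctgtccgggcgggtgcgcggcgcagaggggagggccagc

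The p53 core was found in 161 of 32851 promoter windows of this length, or 0.49%, and the EBF1 core in 3882, or 11.8%. Cdkn1a has 2 windows in the table, and the p53 core begins 48 bases before the start of the window shown. In Pax5, a gene that was lower, the p53 core begins 102 bases before the start. In Phlda3 no p53 core was found in this window, and 2 overlapping EBF1 cores begin 50 bases before the start. A match describes these letters and says nothing about binding.

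B lymphocytes arise in fetal liver from progenitors that express the interleukin 7 receptor, and their identity is fixed by the transcription factors E2A (Tcf3), EBF1, FOXO1 and PAX5. Pax5 (GRCm38, chr4:44524757-44710487), which commits progenitors to the B lineage, was at 6.27, 7.91, 7.14 and 7.17 CPM in S34F replicates 1 to 4. Its level was 27.9 CPM in control B, with an exact Poisson 95% interval of 26.0 to 29.9, and 18.9 CPM in control A. All 4 S34F libraries lay close together and well below both controls. The mean difference was -1.96 ± 0.14 from control B (SD, n = 4), a 3.90-fold lower level, and -1.40 from control A.

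Cd79a (chr7:24897381-24902197), which encodes a signalling chain of the B-cell receptor, was at 1.63, 3.62, 2.57 and 2.88 CPM in the S34F libraries, against 11.2 CPM in control B and 8.31 in control A. The difference from control B was -2.10 ± 0.47, and no S34F library reached either control. Pou2af1, a B-cell coactivator, was at 1.70 to 2.59 CPM against 8.35 in control B and 4.05 in control A. Vpreb3, of the immature B-cell receptor complex, was at 0.575 to 1.20 CPM against 3.57 and 2.46. Il7r, the receptor chain that B and T progenitors need, was at 6.58 to 8.96 CPM against 21.6 and 9.77. For these 3 genes too every S34F library was below both controls, with Il7r closest to control A.

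The list of B-cell specification genes had 19 members, of which 13 were in the table and 12 passed the minimum count. Of the 12, 6 were called lower (among them Pax5, Cd79a, Vpreb3, Pou2af1 and Il7r) and 0 higher, where 0.245% of all genes were called lower. In 11 of the 12 all S34F libraries lay below control B, and in 10 below both controls, where 28.6% and 16.5% of all genes did. The median difference was -1.35 from control B and -0.43 from control A, against 0.00 and 0.01 over all genes. The median was -1.23, -1.34, -1.40 and -1.44 in S34F replicates 1 to 4. The 2 members that were not below both controls were Rag2, a recombinase subunit at 4.18 to 5.12 CPM against 8.97 in control B and overlapping control A, and Tcf3. Tcf3, at 287 to 345 CPM against 308 in control B, did not differ beyond the spread of the S34F libraries. Cd79b, at 37.6 to 39.7 CPM, differed by -0.32 and Foxo1, at 18.1 to 22.7 CPM, by -0.47 from control B. In bulk samples fewer cells of a type and less RNA per cell cannot be told apart.

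The other named genes that were lower lay outside this list. Lef1 (chr3:131110471-131224356), a transcription factor of early lymphocytes, was at 0.779, 1.11, 0.440 and 1.19 CPM against 3.64 in control B and 3.88 in control A, a difference of -2.07 ± 0.61 from control B. Gfra2 (chr14:70890120-70979838), a receptor for neurturin, was at 0.708, 1.03, 0.914 and 0.907 CPM against 3.67 and 2.99, a difference of -1.99 ± 0.21. Neither gene had an S34F library that reached a control. The remaining gene lower than both controls was Irs1, an adaptor of insulin signalling, with 0.212 to 0.302 CPM against 0.693 and 0.827. Among genes called lower against control B only, and chosen after their values were seen, were the lymphocyte genes Cd28 (1.69 to 2.11 CPM against 6.38), Slamf6 (0.981 to 1.35 against 3.85), Ly6d (0.135 to 0.342 against 0.762) and Irf4 (1.52 to 2.44 against 5.41).

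Of 9 T and NK cell genes kept, 0 were called, where 1.06% of all genes were. All S34F libraries were above both controls in 3 and below both in 3, where 17.2% and 16.5% of all genes were, and the median difference was 0.08. Tcf7 and Gata3, transcription factors of early T cells, differed by -0.45 and -0.48 from control B, and Thy1 and Gzmb by 0.77 and 0.71. Outside this list, and chosen after their values were seen, Klrd1, an NK receptor chain, was called lower and Trav13n-4, a T-cell receptor segment, higher. Their mean levels in the S34F libraries were 0.154 and 0.605 CPM, against 1.25 and 0.173 in control B and 0.551 and 0.0636 in control A. Of these, only Trav13n-4 was called beyond both controls. Cd28, lower as given above, was also outside the list. Flt3, a receptor of lymphoid-primed progenitors, was at 55.4 to 82.7 CPM in the S34F libraries, below the 112 of control B, but control A at 71.5 lay within that range.

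**Figure D2:**
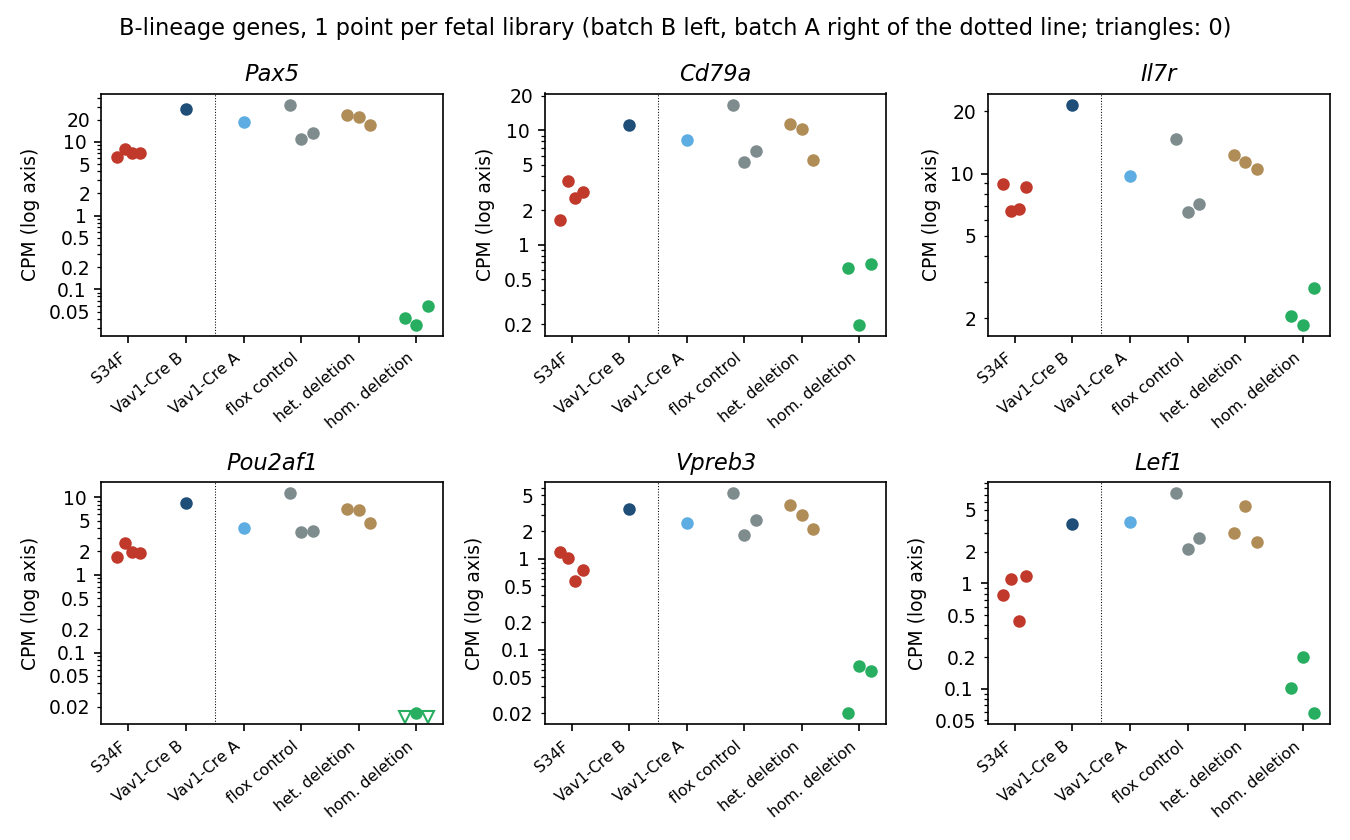
CPM (log axis) of 6 B-lineage genes, 1 point per fetal library: 4 S34F libraries and control B in batch B, and control A and 3 libraries each of the flox control, the heterozygous and the homozygous deletion in batch A; the flox control and deletion libraries were scaled apart from the other 6. The S34F libraries lie below both Vav1-Cre libraries for each gene and above the homozygous deletion, where Pax5 was at 0.0587 CPM or less; open triangles at the lower edge mark a level of 0.

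The transcription factor p53 is stabilised by DNA damage and by other stress, and turns on genes of cell-cycle arrest, apoptosis and repair. Phlda3 (chr1:135766119-135769136), a p53 target that restrains AKT signalling, was at 12.6, 9.90, 11.0 and 15.1 CPM in the S34F libraries. It was at 2.88 CPM in control B (exact Poisson 95% interval 2.29 to 3.56) and 3.43 in control A. All 4 S34F libraries were far above both controls, with a mean difference of 2.04 ± 0.26 from control B, a 4.11-fold higher level. Eda2r (chrX:97333840-97377216), a p53-induced receptor of the tumour necrosis factor family, was at 1.77, 1.92, 2.03 and 2.58 CPM against 0.485 in control B, which had 14 counts, and 0.191 in control A. Its difference was 1.96 ± 0.23 from control B and 3.09 from control A. Eda2r is X-linked, and the part of embryo sex in its difference was not tested.

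Other direct targets were higher by less than 2-fold. Zmat3, an RNA-binding regulator, was at 17.9 to 22.8 CPM against 10.4 in control B and 8.61 in control A. Cdkn1a, the cell-cycle inhibitor p21, was at 29.2 to 34.6 CPM against 17.7 and 23.9. Bbc3, the death-promoting protein PUMA, was at 11.8 to 16.7 CPM against 8.04 and 9.79. Ccng1, cyclin G1, was at 118 to 145 CPM against 84.9 and 86.1. In all 4 genes every S34F library was above both controls, with mean differences from control B of 0.91 ± 0.15, 0.82 ± 0.11, 0.82 ± 0.22 and 0.65 ± 0.13. Bax differed by 0.46, Aen by 0.37 and Tnfrsf10b by 0.22, and these too were above both controls in each S34F library.

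Members of the p53 list differed in both directions. Of 25 genes, 24 were in the table and 23 passed the minimum count, and 2 were called higher (Phlda3 and Eda2r) where 0.812% of all genes were. All S34F libraries were above both controls in 9 of the 23 and below both in 3 (Btg2, Plk2 and Plk3), where 17.2% and 16.5% of all genes were. The median difference was 0.06 from control B and 0.21 from control A. Mdm2, the ubiquitin ligase that limits p53, differed by -0.02 from control B, and the death-promoting Pmaip1 by -0.26. Bax and Bbc3, which belong to the Bcl2 family and were above both controls, were counted with the p53 targets and not in the family's own list. The 9 genes of the Bcl2 family list kept had a median difference of 0.01 from control B. Of them 1 was called higher, where 0.812% of all genes were, namely Bik at 0.271 to 0.444 CPM, but with 2 counts in control B. In 1 of the 9 every S34F library lay above both controls and in 3 below both, where 17.2% and 16.5% of all genes did. The 3 were Mcl1, Bcl2l11 and Bmf, by -0.21, -0.39 and -0.51 from control B.

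**Figure D3:**
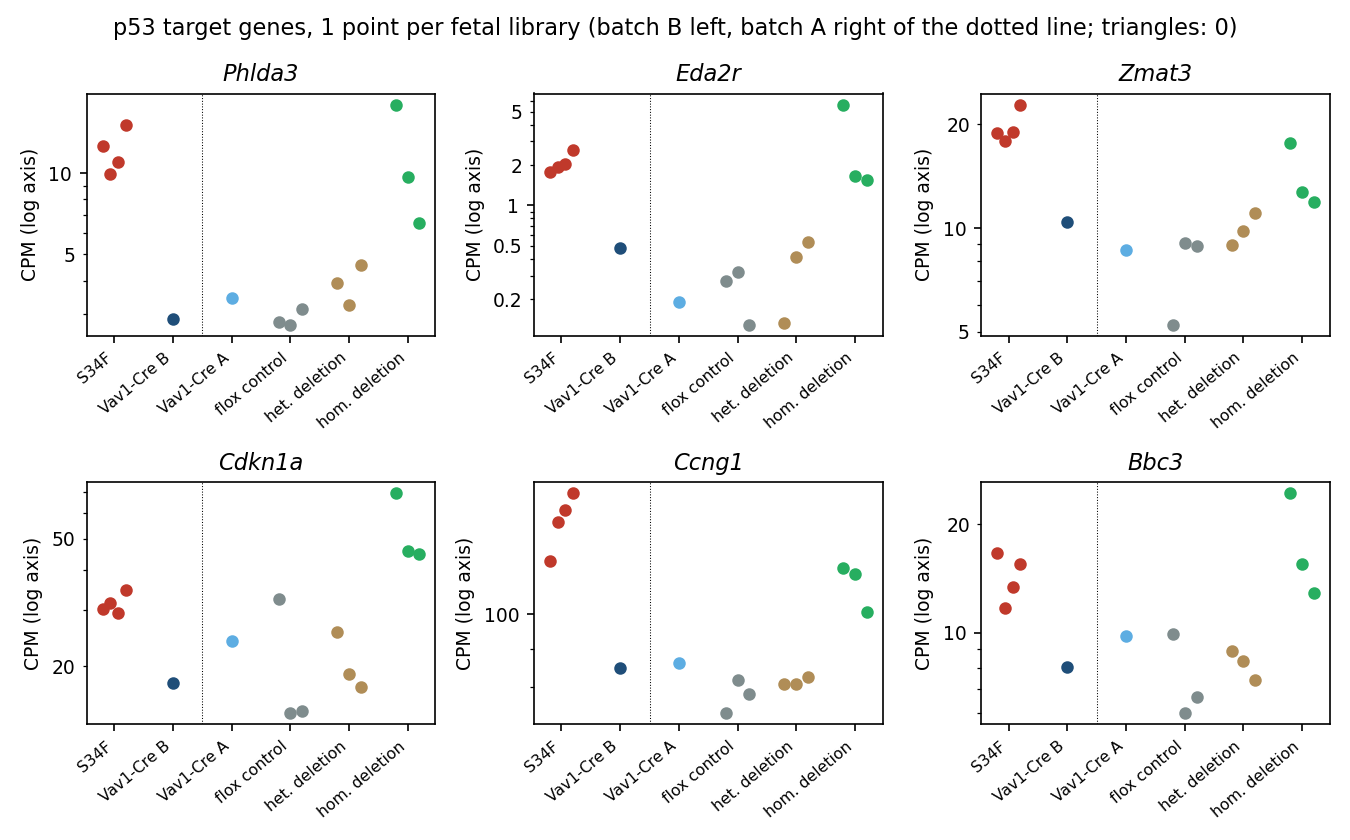
CPM (log axis) of 6 p53 target genes, 1 point per fetal library: 4 S34F libraries and control B in batch B, and control A and 3 libraries each of the flox control, the heterozygous and the homozygous deletion in batch A; the flox control and deletion libraries were scaled apart from the other 6. All 4 S34F libraries lie above both Vav1-Cre libraries for each gene; for Cdkn1a 1 flox control library, at 32.4 CPM, lies within the S34F range of 29.2 to 34.6.

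The named genes outside these groups were higher at low levels. Sulf2 (chr2:166073089-166155663), an enzyme that trims heparan sulfate at the cell surface, was at 2.51, 1.96, 2.81 and 3.06 CPM against 0.554 in control B and 0.827 in control A, a difference of 2.09 ± 0.27. It overlaps Ncoa3, and the use of strand in counting is not given in the sources used here. Mybpc3 (chr2:91118144-91136516), a protein of the heart muscle filament, was at 2.23, 1.77, 1.18 and 1.57 CPM against 0.346, or 10 counts, in control B and 0.191 in control A, a difference of 2.08 ± 0.37. No S34F library came near a control in either gene. Entpd4b, a near copy of Entpd4 whose reads may be shared, was at 10.3 CPM in replicate 1 and 3.22 to 4.94 in the others, against 1.25 and 1.48. The other named genes were Gm6483, Gm7173, 2900052L18Rik, Ptpdc1, Gm43597 and Cpne7, with mean differences of 1.71, 1.47, 1.27, 1.23, 1.14 and 1.13 from control B. Of these, Cpne7 had the highest level, at 8.96 CPM or more in each S34F library against 4.40 and 3.58. Gm7173 is X-linked, and the part of embryo sex in its difference was not tested.

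Because control B is a single library, the S34F libraries were also set against all 8 fetal libraries without the homozygous deletion, in a common scaling of the 12 libraries. These were the 2 Vav1-Cre libraries, 3 flox control libraries (U2af1(flox/flox) without Cre) and 3 libraries with the heterozygous deletion (Vav1-Cre/U2af1(wt/flox)). Of the 8, 7 were in batch A, so genotype and batch cannot be told apart there. This comparison was chosen after the data were seen. Of all genes, 10.4% had every S34F library above the 8 and 10.3% below. At 2-fold, 0.135% were above and 0.00846% below.

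Several p53 targets lay above this wider reference. Of the 23 kept, 9 lay above all 8 libraries and 0 below, namely Phlda3, Eda2r, Zmat3, Ccng1, Bbc3, Bax, Aen, Tnfrsf10b and Polk. Phlda3 was at 9.50 CPM or more in each S34F library and 2.76 to 4.84 in the 8. Eda2r was at 1.71 to 2.47 against 0.139 to 0.571 CPM, and it was the only member at least 2-fold beyond all 8. Polk, a DNA polymerase, was at 18.5 to 19.9 against 11.8 to 18.5 CPM, so that the ranges met. With the 6 libraries scaled alone, not every S34F library was above both Vav1-Cre controls for Polk. Cdkn1a, at 28.1 to 33.2 CPM, overlapped the 8, which ran from 15.3 to 34.4. Sulf2 (1.88 to 2.93 against 0.532 to 0.972 CPM) and Mybpc3 (1.14 to 2.15 against 0.178 to 0.549) were above all 8 too.

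Of the 12 B-cell genes, 7 lay below all 8 libraries and 0 above, among them Pax5, Cd79a, Cd79b, Vpreb3, Pou2af1 and Foxo1. Pax5 was at 6.04 to 7.59 CPM in the S34F libraries and 11.6 to 34.2 in the 8, with a median of 20.8. Cd79a was at 1.57 to 3.48 against 5.70 to 17.9 CPM. The 8 libraries themselves spanned a wide range in both genes, and the lowest of them lay closer to the S34F libraries than control B did. Gfra2, at 0.682 to 0.993 against 2.86 to 7.73 CPM, was the only gene at least 2-fold below all 8. Lef1, at 0.423 to 1.14 against 2.26 to 7.68 CPM, was below all 8 without reaching 2-fold. Il7r overlapped the 8.

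Immediate early genes encode transcription factors and regulators that respond within minutes to growth factors or to handling of the cells. Of 17 on the list 12 were kept, and 0 were called, where 1.06% of all genes were. In 10 of the 12 every S34F library lay below both controls, where 16.5% of all genes did. The median difference was -0.70 from control B and -1.50 from control A. Fos was at 43.0, 21.7, 51.6 and 35.5 CPM against 60.6 in control B and 115 in control A. Egr1 was at 38.7, 30.9, 31.3 and 28.4 CPM against 52.8 and 109, and Zfp36 at 63.6 to 87.8 against 127 and 238. Fosb and Ier3 were not below control B in every library. Against the 8 fetal libraries the order did not hold: only Klf4, at 9.20 to 10.6 against 13.4 to 27.4 CPM, was below all of them, and Fos overlapped, at 20.8 to 49.6 against 24.0 to 194 CPM. Among NF-kB targets the chemokines Ccl3 and Ccl4 differed by -1.36 and -1.18 from control B, and Tnfaip3, an inhibitor of the pathway, by -0.55. Of the 13 NF-kB targets kept, 7 lay below both controls and 0 above both, where 16.5% and 17.2% of all genes did.

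Against control B, the medians of the lists of other blood lineages were nearer to 0 than that of the B-cell genes, but against control A several were further from it. Prg2 and Prg3, major proteins of eosinophil granules, were at 104 to 198 CPM against 326 in control B and 532 in control A, and at 15.2 to 24.4 CPM against 41.8 and 48.3. Both were also below all 8 fetal libraries, of which the lowest had 313 and 32.2 CPM. Il5ra, the eosinophil cytokine receptor, differed by -0.77 from control B but overlapped control A. Ccr3 was above both controls at 0.370 to 0.609 CPM, against 0.208 and 0.127. Of 7 MHC class II and dendritic cell genes kept, all had every S34F library below control B, and 5 below both, where 28.6% and 16.5% of all genes did. Their median difference was -0.55. Cd74, the invariant chain of MHC class II, was at 1.29 to 2.37 CPM against 3.33 and 4.94, and Itgax, the integrin CD11c, at 1.92 to 3.43 against 5.75 and 3.35. As B cells carry MHC class II too, these genes and the B-cell genes are not separate markers, and the part of either cell type was not tested.

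Erythroid transcription factors (8 genes kept), red-cell membrane and hemoglobin genes (17), heme synthesis and iron uptake genes (15), megakaryocyte and platelet genes (15) and neutrophil granule genes (13) had median differences of 0.07, 0.12, 0.03, 0.01 and 0.04 from control B. None of their members was called, where 1.06% of all genes were. Against control A the same lists had medians of -0.33, -1.23, -0.47, -0.10 and -1.33. Of the 15 megakaryocyte and platelet genes, 1 lay above both controls and 3 below both, where 17.2% and 16.5% of all genes did. The 1 above both was Vwf, von Willebrand factor of megakaryocytes and stem cells, at 21.5 to 29.4 CPM against 13.6 and 19.7. Myeloid transcription factors (8), mast cell and basophil genes (8), cytokine receptors (14), stem-cell regulators (16) and genes of the fetal Lin28b program (6) had medians of -0.02, -0.25, -0.08, -0.09 and -0.08. Among the myeloid factors 1 gene was called lower (Irf4) and among the receptors 1 (Il7r), where 0.245% of all genes were. Of the 16 stem-cell regulators, 2 lay above both controls and 2 below both, where 17.2% and 16.5% of all genes did. The 2 above both were Slamf1 and Fgd5, markers of stem cells, by 0.51 and 0.36 from control B. Endothelial and stromal genes (9) had a median of 0.04 from control B and -1.30 from control A. The collagen gene Col3a1 was called higher against control B only, where 0.812% of all genes were called higher. Its mean level was 0.593 CPM in the S34F libraries, 0.139 in control B and 2.52 in control A, a difference of -2.10 from control A.

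U2af2, the partner of U2AF1, was lower in the S34F libraries. It was at 355, 325, 335 and 336 CPM against 451 in control B and 495 in control A, a difference of -0.42 ± 0.05 from control B. Every S34F library was also below all 8 fetal libraries, at 312 to 342 against 433 to 672 CPM. Of 18 factors of 3' splice-site recognition kept, 6 lay below both controls and 2 above both, where 16.5% and 17.2% of all genes did. The former held Sf3b3, a subunit of the U2 particle, which differed by -0.25, and the latter Zrsr2 and Rbm39, relatives of the U2AF subunits, which differed by 0.19 and 0.13. Of 24 SR and hnRNP regulators of splicing, 10 lay below both controls and 0 above both, beside the same shares of all genes, with a median of -0.10. Hnrnpf and Hnrnpk differed by -0.20 and -0.22. Of 14 factors of nonsense-mediated decay, the pathway that removes RNAs with early stop codons, 4 lay above and 4 below both controls, beside the same shares.

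Several genes are known for altered splicing in cells with U2AF1 S34F, and 7 of 9 on that list were kept. Their median difference was -0.11 from control B, and 0 were called, where 1.06% of all genes were. In 5 of the 7 every S34F library lay below control B, and in 0 above it, where 28.6% and 29.9% of all genes did. In 3 of the 7 every S34F library lay below both controls, where 16.5% of all genes did. H2afy was at 1194 to 1387 CPM against 1448 in control B, and Casp8 and Picalm both differed by -0.25 from it. All 7 overlapped the 8 fetal libraries, where 10.4% of all genes lay above the 8 and 10.3% below.

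The medians of the remaining lists stayed near 0 against control B. Interferon-stimulated genes (27 kept) had a median of -0.06 from control B and 0.42 from control A. In 7 of them every S34F library lay above control B and in 8 below it, where 29.9% and 28.6% of all genes did. Mx1 and Ifit1, antiviral proteins, both differed by 0.41 from control B. The medians were 0.02 for ATF4 stress genes (17), -0.06 for ER chaperones (16), 0.00 for heat shock genes (5), -0.04 for mitosis genes (18), -0.06 for DNA replication licensing genes (21), 0.08 for glycolysis enzymes (12), 0.07 for replication-dependent histones (7) and 0.04 for cytosolic ribosomal proteins (43). In the last list 1 gene was called lower, where 0.245% of all genes were. It was Rpl39l, at 0.370 to 1.19 CPM against 2.56 in control B but 0.466 in control A. Of the 21 licensing genes 9 lay below both controls and 0 above both, where 16.5% and 17.2% of all genes did. For the 16 ER chaperones these numbers were 6 and 0, beside the same shares.

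**Figure D4:**
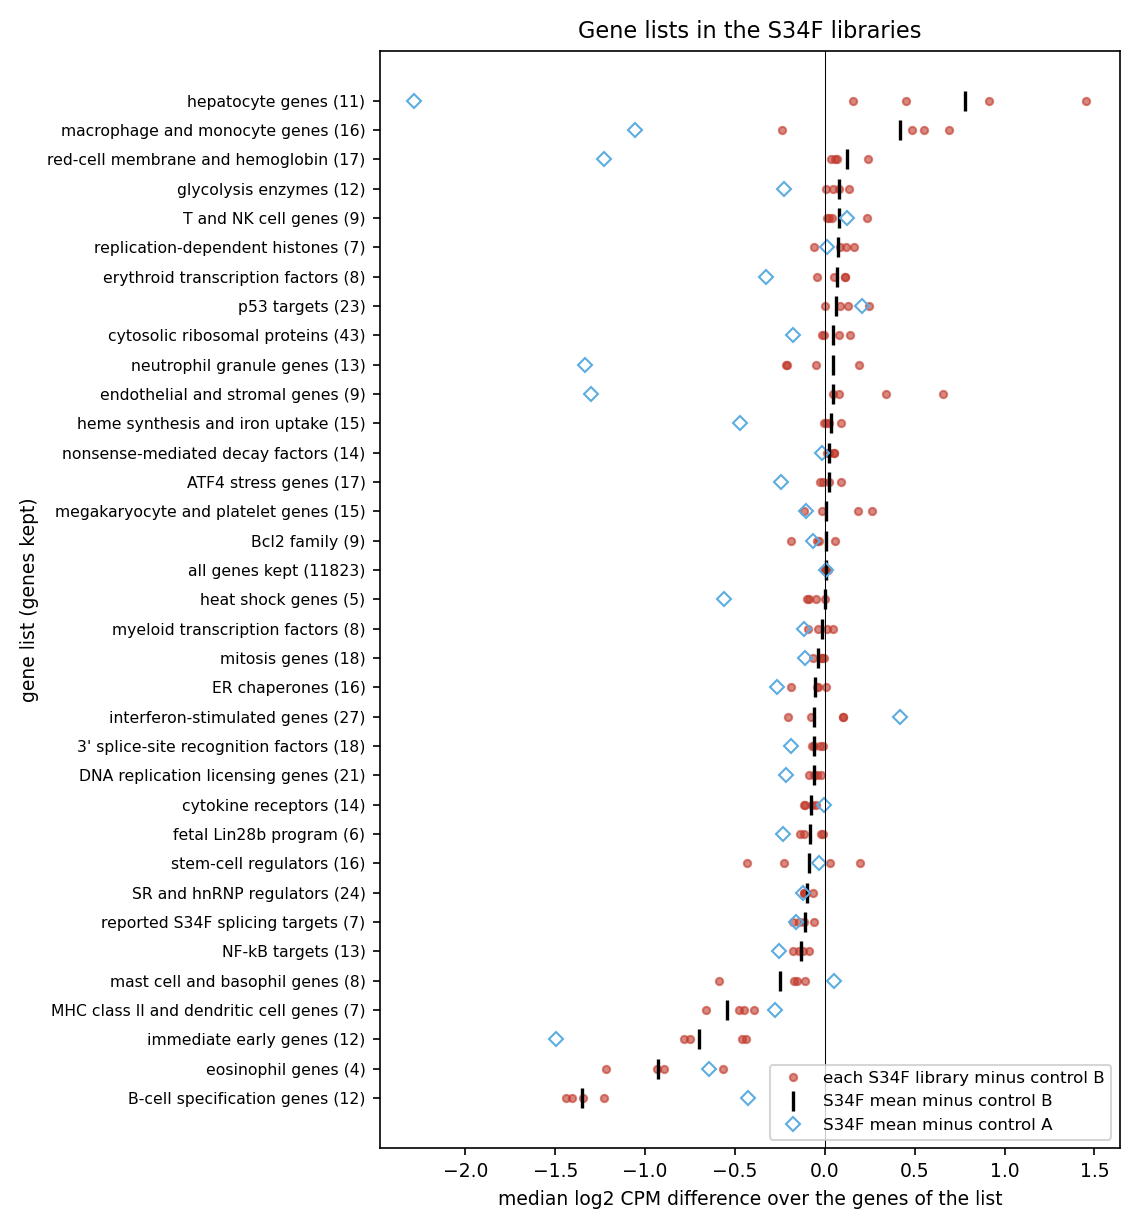
Median log2 CPM difference over the genes of each list, with the number of genes kept in brackets: red points are the 4 S34F libraries minus control B, black bars their mean minus control B and blue diamonds their mean minus control A. B-cell genes are lowest against control B, at -1.35, and hepatocyte genes have medians of opposite sign, 0.78 and -2.29, against the 2 controls.

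The genes found here were looked up in comparisons that share no library with the S34F comparison. The homozygous deletion (Vav1-Cre/U2af1(flox/flox), n = 3) was compared with the flox control (n = 3) in batch A at the same stage. By the quasi-likelihood test of edgeR, adjusted after Benjamini and Hochberg, 18.5% of 12678 genes rose in the homozygous deletion and 22.4% fell. Of the 29 genes lower in the S34F libraries 28 were tested there, and 20 fell while 0 rose. Of the 96 higher genes 76 were tested, and 11 rose while 12 fell. Of the 12 B-cell genes 11 fell there, Bank1 being the exception at 0.45 ± 0.21 with an edgeR adjusted p of 0.107.

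Pax5 fell by 8.73 ± 0.62 (SE) on the log2 scale in the homozygous deletion, from 10.8 to 32.2 CPM in the flox control to 0.0333 to 0.0587 CPM, with an adjusted p of 7.32e-06 in edgeR. At so low a level in the deletion the fitted size depends on the prior count. Cd79a fell by 4.31 ± 0.57 (adjusted p 0.000241), Lef1 by 4.94 ± 0.63 (adjusted p 0.000205) and Gfra2 by 5.65 ± 0.48 (adjusted p 2.2e-05), in the same edgeR test. Phlda3 rose by 1.99 ± 0.31 (adjusted p 0.000679) and Eda2r by 3.64 ± 0.65 (adjusted p 0.00145), in edgeR. Direction was not shared by all genes: U2af2 rose by 0.66 ± 0.06 (adjusted p 3.29e-05), Prg2 by 1.33 ± 0.37 (adjusted p 0.0145) and Prg3 by 1.25 ± 0.30 (adjusted p 0.00759), while all were lower in the S34F libraries. Sulf2 and Mybpc3 did not pass, at -0.08 ± 0.45 and -0.27 ± 0.53, with edgeR adjusted p of 0.907 and 0.718. Cpne7 and Ptpdc1, higher in the S34F libraries, fell by 2.13 ± 0.38 and 1.39 ± 0.31, with edgeR adjusted p of 0.00135 and 0.0045.

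**Figure D5:**
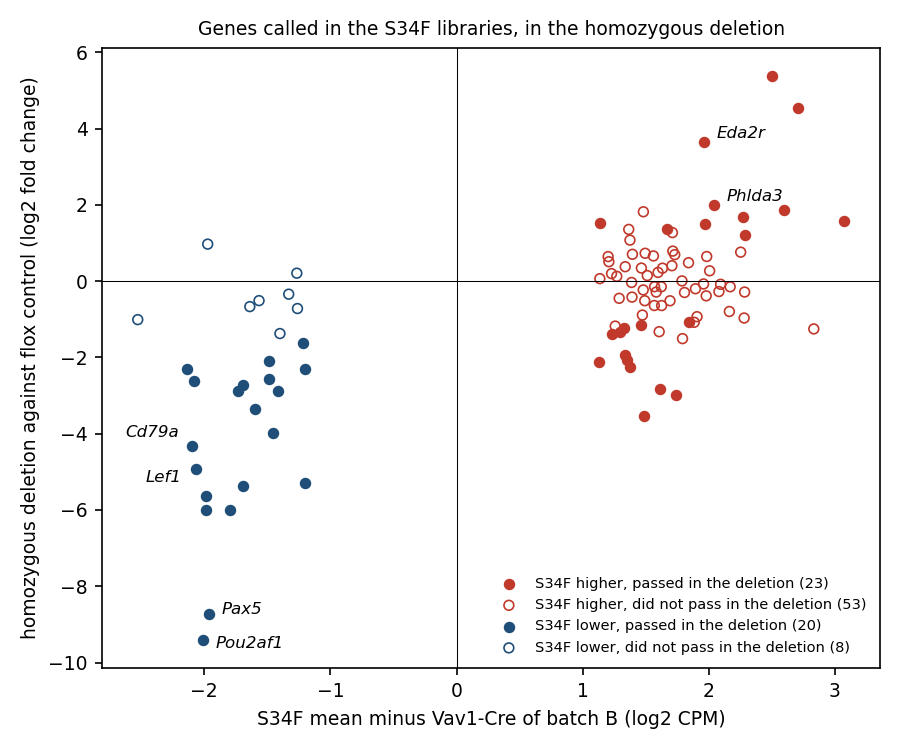
Mean log2 CPM difference of the S34F libraries from control B (horizontal axis) and log2 fold change of the homozygous deletion against the flox control (vertical axis) for the genes called in the S34F libraries and tested in both. Of 28 lower genes 20 fell in the deletion at an adjusted p under 0.05 (filled), and of 76 higher genes 11 rose and 12 fell.

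In the heterozygous deletion (n = 3) against the flox control edgeR called 1 gene higher (0.00789%) and 3 lower (0.0237%), and 0 of the 76 higher and 28 lower S34F genes tested were among them. These counts were not stable, at 269 genes without flox control replicate 3, 37 without heterozygous deletion replicate 3 and 0 without any other. Pax5 differed by 0.14 and Phlda3 by 0.43 there, with edgeR adjusted p of 0.933 and 0.728. The difference between the heterozygous deletion and the S34F genotype was not tested.

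In adult bone marrow cells of the same gate, 14 libraries of mice with U2af1(flox/S34F) were compared with 3 untreated libraries of mice with U2af1(wt/wt). All 17 carried Mx1-Cre, rTA and tgU2AF1(WT), and the 14 received pIpC and doxycycline at 1250, 2500 or 10000 ppm, so genotype and treatment cannot be told apart. EdgeR called 1.39% of 13338 genes higher and 1.18% lower. Phlda3 rose by 2.16 ± 0.45 (SE), with an edgeR adjusted p of 0.0271, and Sulf2 by 2.24 ± 0.45, with 0.0229. Eda2r did not pass, at 0.97 ± 0.46 with an edgeR adjusted p of 0.213. Of the 26 tested genes that were lower in the fetal S34F libraries, 10 rose in the adult mice and 0 fell, in the opposite direction. Of the 78 tested genes that were higher, 6 rose and 0 fell. Pax5 rose by 4.29 ± 0.84 with an edgeR adjusted p of 0.0205, and Cd79a by 3.95 ± 0.77 with 0.0199. These adult calls rest on the untreated libraries. The number of genes called went from 343 to 1, 10 and 70 without untreated replicates 2, 3 and 1, and to 659 without replicate 1 of the 2500 ppm group.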

How the data were processed

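RNA was sequenced from sorted progenitors, after ribosomal RNA depletion, as paired reads on an Illumina NovaSeq, per the labels' protocols. The authors aligned them to GRCm38 using HISAT2 2.1.0, per the design text in the labels. The deposited table held raw whole-number counts per Ensembl gene, not normalized, for 27728 genes. The counting tool and the use of strand are not given in the sources used here. Symbols and coordinates came from GENCODE M21, in which 27690 IDs had a symbol and 38 did not.

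Counts were scaled with TMM factors of edgeR 4.0.16 over the 6 libraries, and log2 CPM used a prior count of 2. Genes with a mean of at least 10 counts over the 5 batch B libraries were kept. Calls needed a 2-fold difference in all 4 S34F libraries and had no test. Intervals of a single library's CPM are exact Poisson intervals at 95%. The deletion and adult comparisons used edgeR's quasi-likelihood test with filterByExpr and a Benjamini-Hochberg adjusted p under 0.05. Only the comparison of the homozygous deletion with the flox control was checked on simulated data. The SE of a log2 fold change was derived from that test, as its absolute value divided by the square root of the F statistic. P-values measure the spread between libraries, which may be technical, since the labels do not say that replicates were separate animals. S34F libraries differed from each other by more than counting error: chi-square divided by its degrees of freedom was 4.19 to 14.7 over the pairs.

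Named genes were called beyond both controls, averaged 50 counts or more in whichever group was higher, and were the 12 with the largest difference in each direction, or all where fewer. Members of the lists were named too. The genes, lists and rules were chosen with earlier results of these data known. The lists of sex-linked genes and of decay-sensitive snoRNA host genes had 0 members in the table, and the mitochondrial transcripts had 2 kept, at a summed level of 1.59 CPM or less. Alternatives tried were RLE factors, other filters, folds and prior counts, leaving out genes over 1% of a library, control A as the control, DESeq2 1.42.0, the replicate number as a block, and leaving out each library in turn. Equal replicate numbers did not pair the flox control and deletion libraries: deviations of same-numbered libraries correlated between -0.162 and 0.144. Pairing was not checked in the adult libraries. The values of 1 member of the B-cell list are not reported here.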

Additional observations from a re-analysis of the deposited data

Results flagged for a closer look

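In 4 of 139 values checked over the 4 S34F libraries, 1 library stood apart by a gap, relative to the group's range, above Dixon's 95% critical value. Chance flags about 5% of such groups. The total count of S34F replicate 4 was 48900000, against 26600000 to 28900000 in the others. Ccl4, a chemokine, was at 1.52 CPM in S34F replicate 1, against 0.702 to 0.711 in the others. Cd74 was at 1.29 CPM in S34F replicate 2, against 2.19 to 2.37 in the others. Sdc4, a heparan sulfate proteoglycan that was called lower, was at 3.18 CPM in S34F replicate 4, against 2.23 to 2.37 in the others and 6.93 in control B.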

How the results depend on the processing

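Without a filter on low counts 250 genes were higher and 213 lower than control B, and 83 and 16 beyond both controls. With a mean of at least 50 counts these were 14, 11, 8 and 2. At 1.5-fold they were 335, 131, 173 and 33, and at 3-fold 23 and 7 against control B. Control A as the control gave 480 higher and 137 lower. Also 2-fold beyond the flox control and heterozygous deletion libraries were 15 of the 42 higher and 1 of the 5 lower genes, a rule chosen after seeing the data. Leaving out 1 S34F library gave 111 to 131 higher, 35 to 48 lower, 51 to 60 higher beyond both and 5 to 11 lower beyond both, with 48 and 11 without S34F replicate 1, as fewer libraries have to agree. Without 1 S34F library the B-cell median was -1.40 to -1.32 and the p53 median 0.04 to 0.11. The B-cell median was -1.24 without a filter, -1.22 with at least 50 counts and -0.43 with control A. The p53 median was 0.22 with at least 50 counts and 0.21 with control A. The immediate early median was -1.50 with control A, and -0.77 to -0.51 without 1 library, with -0.51 without S34F replicate 2. With control A the medians of red-cell (-1.23), macrophage (-1.06), hepatocyte (-2.29), glycolysis (-0.23), nonsense-mediated decay (-0.016) and mast cell and basophil genes (0.049) changed sign. So did medians near 0, namely those of neutrophil granule (-1.33), endothelial and stromal (-1.30), heat shock (-0.56), heme (-0.47), interferon-stimulated (0.42), erythroid factor (-0.33), ATF4 (-0.25), ribosomal protein (-0.18), megakaryocyte (-0.10) and Bcl2 family genes (-0.07). The cause was not tested. RLE factors, a prior count of 0.5 and leaving out genes over 1% of a library moved no list or named gene. No paired analysis was possible for the S34F libraries because their comparison comes from no test. In the comparisons with a test, the heterozygous deletion had 4 genes called, 118 with DESeq2, 230 without a filter, 0 with the replicate block and 0 to 269 with 1 library left out. The adult comparison had 343, 1204 with DESeq2, 190 without a filter, 297 with the replicate block and 1 to 659 with 1 library left out. The homozygous deletion had 5194, 4049 with the replicate block and 3994 to 5589 with 1 library left out.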
